A study of Mus musculus with 54 samples.

Results

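Megalin (Lrp2), cubilin (Cubn), amnionless (Amn) and Dab2 were chosen by name as the genes of the megalin and cubilin uptake system, 4 genes out of 22424 listed in every bulk table and 11261 listed in every single-cell and single-nucleus table. They were followed in 54 mouse kidney libraries, comprising 15 bulk RNA-seq, 27 single-cell and 12 single-nucleus libraries in 18 groups of 3. Male AFAPIL.1DEL C57BL/6J mice of 19 weeks, all of 1 litter, gave kidneys dissociated warm with a Miltenyi enzyme kit or cold with a cold-active Bacillus licheniformis protease. Those suspensions were profiled fresh by bulk RNA-seq and 10x v2, and aliquots of them were profiled after cryopreservation or methanol fixation. Male Balb/c mice of 18 weeks, also of 1 litter, gave cold-dissociated cells, sorted nuclei of flash-frozen kidneys and bulk RNA of intact kidneys, with 10x v2. Female Balb/c mice of 15 weeks, formerly breeders, gave cold-dissociated fresh and cryopreserved cells, 3 kinds of nuclei, and bulk RNA of intact kidneys and of cold suspensions, with 10x v3. The nuclei were sorted after 3 washes at 500 g (3x500g), sorted after 1 wash at 2000 g (1x2000g), or cleaned on a sucrose cushion without sorting. Strain and age differ together between the C57BL/6J and the male Balb/c experiments, and sex, age, chemistry and bulk library kit between the male and the female Balb/c experiments, so that they cannot be told apart.

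Megalin and cubilin are very large receptors of the brush border of the proximal tubule (PT), where they bind filtered albumin, vitamin carriers and hormones. Cubilin has no membrane-spanning part and depends on amnionless, a small single-pass membrane protein, to leave the endoplasmic reticulum and reach the surface. Dab2 is an adaptor that binds the tail of megalin and recruits clathrin and AP-2, and in other tissues it also serves the uptake of other receptors. The bound cargo is carried to lysosomes and the receptors return to the surface.

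The 4 genes differ greatly in size on GRCm38 (GENCODE M21). Lrp2 lies on the minus strand at chr2:69424340-69586065, spans 161.7 kb and has 16.7 kb of exon, with 79 exons in its longest transcript. Cubn lies on the minus strand at chr2:13276338-13491813, spans 215.5 kb and has 14.94 kb of exon. Dab2 lies on the plus strand at chr15:6299788-6440712 and spans 140.9 kb with 7.34 kb of exon. Amn, on the plus strand at chr12:111271095-111276426, spans only 5.3 kb with 1.84 kb of exon. Exons are 10.33% of the span of Lrp2, 6.93% of Cubn, 5.21% of Dab2 and 34.56% of Amn, so introns make up most of the 3 large genes. Cubn overlaps the transcript Gm13270 on the other strand, and Dab2 overlaps the antisense gene Gm16311 and the pseudogene Gm18888, also on the other strand, and their bulk reads cannot be told apart unless strand was used in counting.

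The sequences upstream of the 4 genes are shown because the genes share a cell type, and the 4 windows printed differ in composition. Each is the window from 250 to 51 bases before the RefSeq start (GRCm38.p6), printed 5′ to 3′ on the strand of the gene, with none of its bases in a GENCODE exon. The windows are chr2:69586080-69586279 for Lrp2, chr2:13491927-13492126 for Cubn, chr12:111270846-111271045 for Amn and chr15:6299539-6299738 for the upstream start of Dab2. Capitals mark GTTAA, the core of the site of HNF1, a factor of proximal tubule genes, and ATTGG, the CCAAT box read on the other strand.
Lrp2: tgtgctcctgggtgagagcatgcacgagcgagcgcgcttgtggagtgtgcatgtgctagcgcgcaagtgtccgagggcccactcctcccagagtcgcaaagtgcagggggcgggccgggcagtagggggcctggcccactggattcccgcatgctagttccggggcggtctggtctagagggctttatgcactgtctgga
Cubn: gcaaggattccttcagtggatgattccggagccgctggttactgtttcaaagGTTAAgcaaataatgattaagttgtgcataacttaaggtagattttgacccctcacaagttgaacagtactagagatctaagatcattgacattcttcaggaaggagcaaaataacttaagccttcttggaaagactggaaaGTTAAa
Amn: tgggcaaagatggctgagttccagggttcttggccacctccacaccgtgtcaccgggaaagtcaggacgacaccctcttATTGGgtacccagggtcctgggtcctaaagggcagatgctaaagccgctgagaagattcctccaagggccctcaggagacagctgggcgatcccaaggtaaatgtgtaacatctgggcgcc
Dab2: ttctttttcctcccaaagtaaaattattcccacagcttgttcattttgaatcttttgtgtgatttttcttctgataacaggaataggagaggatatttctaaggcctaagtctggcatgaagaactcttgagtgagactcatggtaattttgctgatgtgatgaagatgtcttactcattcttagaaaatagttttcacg
The Lrp2 window holds 13 CpG and is 65.0% G and C, and the Dab2 window holds 1 CpG at 35.0%, against medians of 4 CpG and 51.5% over 32851 RefSeq windows of the same length. Searched on both strands, GTTAA occurs 2 times in the Cubn window, at 198 and 56 bases before the start, and is found in 18.47% of all windows. Amn has its CCAAT box at 171 bases before the start, a motif found in 28.43% of windows. A second RefSeq start of Dab2 has GTTAA at 65 bases before it. The window of that start, with 100 of its bases in a GENCODE exon, holds 15 CpG at 61.0%, near the Lrp2 window. The contrast of Dab2 with Lrp2 in composition thus depends on the start chosen. The 4 windows held neither CACGTG (in 4.34% of all windows) nor AGGTCA (in 11.38%) nor TATAAA (in 9.14%).

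Bulk libraries held 2326998 to 31093949 counted reads, and 10x libraries held 782 to 9308 barcodes and 811794 to 35170947 UMIs of genes other than mitochondrial ones. The shallowest bulk library, replicate 2 of the male Balb/c kidneys, stood apart from its group in Cubn, Amn and Dab2. Barcodes were grouped by clustering and named from markers, and the 22 PT markers do not include the 4 genes. PT-like barcodes made up 58.4 to 72.9% of fresh C57BL/6J cells, 49.0 to 57.4% of fresh Balb/c cells, 28.9 to 31.6% of male nuclei and 39.2 to 44.2% of female nuclei, while another 24.0 to 27.6% of male nuclei, in 3 clusters with 19 to 22 of the 22 PT markers but with other genes in the lead, stayed unnamed and are outside the PT-like sums. At most 101 barcode sequences were shared by any of the 741 pairs of libraries.

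Lrp2 had the highest level per length of the 4 genes in every bulk group. In TPM (reads per exon base, scaled to the same total in every library), Lrp2 stood at 2435, 2279 and 2405 in C57BL/6J cold suspensions, at 1747, 1658 and 1745 in male Balb/c kidneys and at 1256, 1219 and 1015 in female Balb/c kidneys. By mean TPM it was gene 30 of 24140, 35 of 22354 and 69 of 25519 in these groups. In female cold suspensions Lrp2 was lower, at 577, 539 and 554 TPM and gene 221, and stood only 1.36 to 1.61 times above Amn. The order of the other 3 genes changed with the experiment. Cubn followed Lrp2 in C57BL/6J cold suspensions, at 604, 544 and 671 TPM, with Dab2 at 338 to 370 and Amn lowest at 169 to 206, and none of these ranges touched. In the intact female kidneys Amn came second at 373, 378 and 340 TPM, above Dab2 at 290, 292 and 250, whose range overlapped that of Cubn at 272, 263 and 202. Male Balb/c kidneys had Cubn at 324, 195 and 330, Dab2 at 318, 162 and 292 and Amn at 178, 259 and 149, with overlapping ranges.

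**Figure D1:**
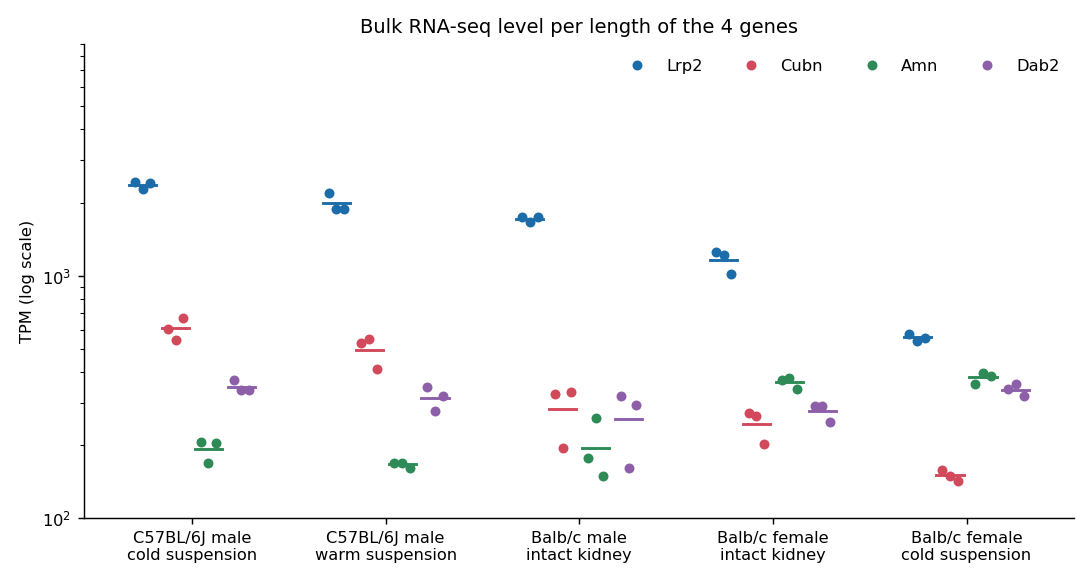
TPM on a log axis of Lrp2, Cubn, Amn and Dab2 in the 15 bulk libraries, with 1 point per library and a line at the mean of each group of 3. Lrp2 is the highest of the 4 in every library, at 539 to 2435, while the order of the other 3 differs between the experiments.

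The comparison of intact kidneys with cold suspensions asks how their bulk RNA differs. Intact kidneys were flash-frozen before RNA was taken, while suspensions were digested, filtered and spun, so these steps cannot be told apart. The receptors were higher in the intact female kidney, the adaptor was lower, and amnionless did not pass the test. Lrp2 measured 5803, 5572 and 4728 CPM (reads of a gene scaled to the same library total) in intact kidneys and 2840, 2609 and 2746 in suspensions, and every intact value was above every suspension value. The fitted fold was 1.98 (log2 0.99 ± 0.10 SE, edgeR adjusted p = 0.00012). Cubn, at 1123, 1075 and 843 CPM against 697, 650 and 635, was 1.55-fold higher (adjusted p = 0.003). Dab2 went the other way, at 590, 586 and 513 CPM in intact kidneys against 735, 758 and 697 in suspensions (log2 -0.36 ± 0.07, adjusted p = 0.0075). Amn stood at 190, 191 and 175 CPM against 195, 211 and 212, with ranges apart but log2 -0.14 ± 0.06 and adjusted p = 0.148. So 3 of the 4 members were called by the quasi-likelihood test of edgeR, with 20% of all genes called, and only 3.77% of all genes had a larger fold than Lrp2. Each of these 3 calls held when any library was left out. Of the 22 PT markers, 6 were higher and 7 lower, with a median log2 of -0.07, and their summed level was 24456 to 27686 CPM in intact kidneys against 28136 to 28748 in suspensions. Markers of other classes moved too: 8 of 9 of thin limb, 9 of 11 of endothelial and 7 of 8 of fibroblast markers were higher in intact kidneys, and 6 of 6 connecting tubule markers lower. Of 8 macrophage markers 6 were lower and 1 higher, with a summed level of 478 to 507 CPM in intact kidneys against 430 to 471. Mitochondrial reads were 2.22 to 2.32% of intact and 3.97 to 4.86% of suspension libraries. The part of these shifts in the members' values was not tested. Among genes spanning 100 kb or more the median log2 was 0.07, and Lrp2 and Cubn were above 94.7% and 90.0% of them. In bulk RNA, fewer cells of a type and less RNA per cell cannot be told apart.

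In bulk C57BL/6J suspensions the warm values of all 4 genes lay below the cold values, and none was called. Lrp2 was 9799, 8707 and 8596 CPM warm against 10850, 10677 and 11259 cold, and Cubn was 2102, 2261 and 1700 against 2407, 2280 and 2807. Dab2 was 683, 560 and 643 CPM against 725, 696 and 696, and Amn was 83.3, 86.5 and 81.7 against 101, 87.6 and 106. The log2 differences were -0.30 ± 0.10, -0.33 ± 0.12, -0.19 ± 0.08 and -0.26 ± 0.08 in that order, with adjusted p of 0.098, 0.109, 0.156 and 0.080 by edgeR. With 0 of 4 members called, against 8.68% of all genes, 4 had an unadjusted p under 0.05, and DESeq2 called 2 of them, Lrp2 and Cubn. Without cold replicate 2, Amn was called as well (log2 -0.33, adjusted p = 0.0398). Of the PT markers, 7 of 22 were lower in warm suspensions and 0 higher, with a median log2 of -0.17, and their sum was 32194 to 34376 CPM warm against 35995 to 36869 cold. Markers of the distal tubule were higher in warm suspensions, with 6 of 8 of collecting duct principal, 7 of 9 of intercalated and 5 of 6 of connecting tubule cells. Their part in the members' values was not tested.

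Cell by cell, PT-like barcodes had the highest level of Lrp2, Cubn and Amn in each of the 5 groups compared across cell classes, which were the fresh cold cells of the 3 experiments and the 3x500g nuclei. These class levels are a description, since the clusters were made from the same barcodes, by 2000 variable genes with the members left out. In C57BL/6J cold cells the PT-like level was 6.01 times that of the next class for Lrp2, 3.92 times for Cubn and 2.77 times for Amn, and every PT-like library was above every library of the other 14 classes. The next class was thin limb-like cells in each case. In UMIs scaled to the same total, also given as CPM, female cells had the same order, with PT-like means of 1601 CPM for Lrp2, 222 for Cubn and 362 for Amn against 589, 73.1 and 156 in thin limb-like cells. In male Balb/c cells the ranges of a few small classes overlapped the PT-like range, with B cell-like cells at 485 CPM of Lrp2 (45.1 to 1324, from 5 UMIs) against 1017 (890 to 1157), and 11 of 13 other classes lay wholly below it. In male nuclei the margin was narrower, with endothelial-like nuclei at 719 CPM of Lrp2 against 1127 in PT-like nuclei.

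Dab2 was not restricted to the PT. In male Balb/c cells, intercalated-like cells of the collecting duct, which secrete acid or base, had 776 CPM of Dab2 (739 to 796 over 3 libraries), above PT-like cells at 561 (532 to 598), with no overlap. In C57BL/6J cold cells they had 372 CPM (234 to 457) against 488 (453 to 509), and in female cells 443 (389 to 505) against 510 (500 to 524), where the ranges overlapped. Macrophage-like cells had 280, 325 and 442 CPM in C57BL/6J, male Balb/c and female Balb/c cells, although the male value rests on 31 UMIs. In nuclei, PT-like barcodes were first, with macrophage-like nuclei second at 2121 CPM in males and 2227 in females. That second place was not particular to Dab2. Macrophage-like nuclei were also second for Lrp2 (1281 CPM), Cubn (417) and Amn (46.4) in females and for Cubn (420) in males. Endothelial-like nuclei were second for Lrp2 and Amn in males.

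The share of Dab2 among the summed Dab2 and Lrp2 UMIs needs no scaling between classes. In C57BL/6J cold cells it was 33.8% in PT-like cells (4333 of 12806 UMIs, 95% exact interval 33.0 to 34.7) and 83.5% in intercalated-like cells (223 of 267 UMIs, 78.5 to 87.8), and it was 82.2 to 85.2% in each of the 3 libraries of the latter. In female cells the same shares were 24.2% and 82.6%, in male cells 35.6% and 92.0%, in female nuclei 54.6% and 80.7%, and in male nuclei 68.8% and 80.1%. Macrophage-like cells stood at 70.0%, 86.1% and 74.1% in C57BL/6J, male and female cells. Macrophage-like nuclei had 63.7% in females (61.3 to 66.0) and 74.9% in males (68.3 to 80.7), against 54.6% and 68.8% in PT-like nuclei. These intervals cover counting error only. Other classes stood above the PT share too. In female 3x500g nuclei principal-like had 62.2%, thin limb-like 62.0% and podocyte-like 60.8%, near the macrophage-like share. Endothelial-like, fibroblast-like and distal convoluted tubule-like female nuclei had 60.0%, 59.8% and 58.9%. Thick ascending limb-like and connecting tubule-like female nuclei were below the PT share, at 52.7% and 46.9%. In C57BL/6J cold cells dendritic-like cells had 80.0% (35 UMIs), principal-like 76.6% (47 UMIs), podocyte-like 66.9% and endothelial-like 65.9%. In female cells principal-like, endothelial-like and podocyte-like cells had 65.2%, 57.7% and 56.7%. B cell-like and monocyte-like C57BL/6J cold cells were lower, at 22.7% and 21.7% (44 and 23 UMIs). Some classes sat at the PT ratio: thin limb-like and connecting tubule-like female cells had 24.6% and 24.7%, and endothelial-like and thick ascending limb-like male nuclei had 69.2% and 66.1%.

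**Figure D2:**
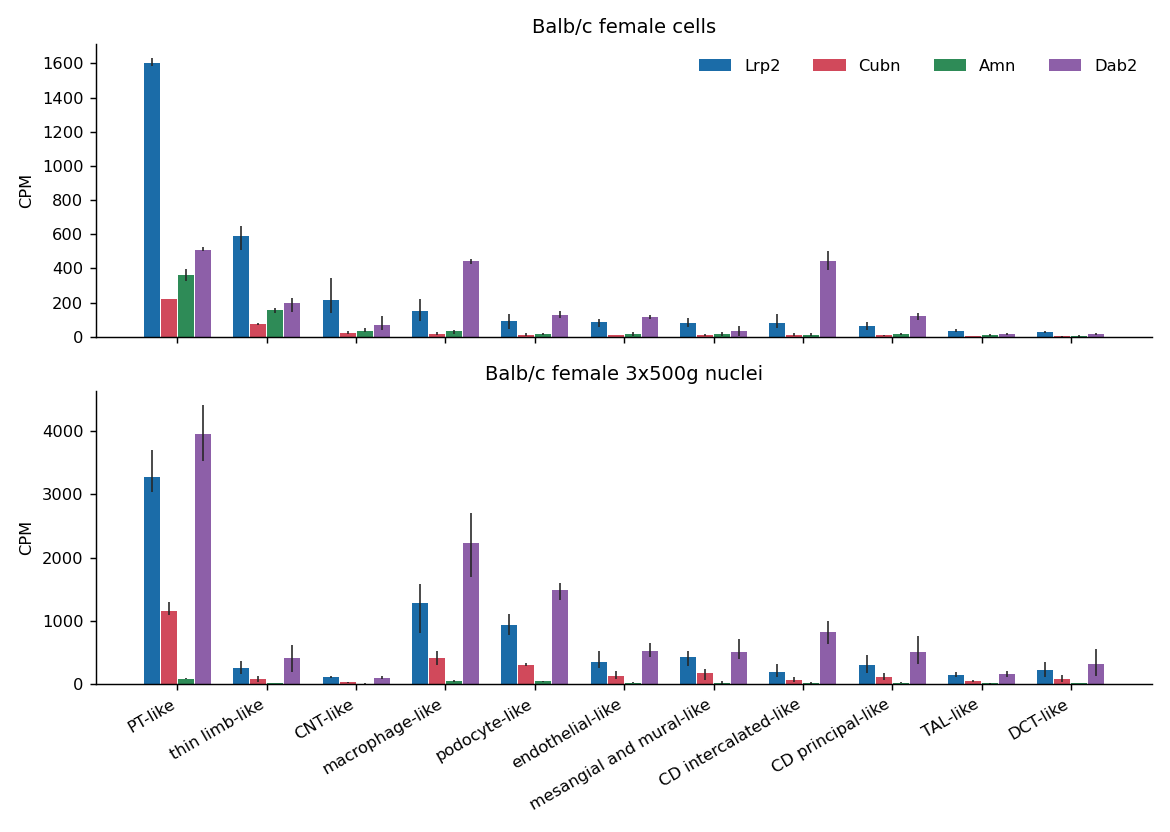
Mean CPM of the 4 genes by cell class (bars) with the lowest and highest of 3 libraries (lines), in fresh cold female Balb/c cells above and 3x500g nuclei below. PT-like barcodes are highest for all 4 genes in both panels, and Dab2 reaches 443 CPM in intercalated-like cells and 442 in macrophage-like cells while Lrp2 stays low there.

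Along the tubule, the mean level of Amn and Dab2 was higher in the S1-like (early) than in the S3-like (late) PT clusters in all 9 groups that had both in 3 libraries, while the order of Lrp2 and that of Cubn differed between them. The library ranges of Amn and Dab2 were apart in each, except for Amn in warm methanol-fixed cells (288 to 366 CPM against 193 to 289). These too are descriptions of clusters. In female 3x500g nuclei Dab2 was 5203 to 5884 CPM in S1-like and 1214 to 1712 in S3-like clusters, and Amn was 117 to 125 against 52.5 to 70.6, while Lrp2 was lower in S1-like clusters, at 2489 to 3162 against 3492 to 4341. C57BL/6J cold cells showed the same for Dab2 (502 to 625 against 357 to 362 CPM) and Amn (331 to 418 against 187 to 245) and overlapping ranges for Lrp2 (922 to 1295 against 943 to 1408). In male nuclei Lrp2 was higher in S1-like clusters, at 1210 to 1318 CPM against 784 to 1064, and Dab2 was 3341 to 4207 against 582 to 798. Cubn was lower in S1-like clusters of female 3x500g nuclei, at 974 to 1164 CPM against 1305 to 1549. It was higher in those of male Balb/c cells, at 99.9 to 210 against 71.8 to 83.7, and its ranges overlapped in C57BL/6J cold cells, at 148 to 167 against 125 to 159.

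Comparing warm with cold dissociation within PT-like cells asks whether the difference lies in the cells themselves. Megalin was lower after warm dissociation and the other 3 genes did not pass the test. Lrp2 was 776, 1020 and 1045 CPM in the cold libraries and 562, 699 and 601 in the warm ones, without overlap, and the log2 difference was -0.53 ± 0.13 (edgeR adjusted p = 0.0159). Dab2 was 453, 509 and 502 CPM cold and 449, 375 and 423 warm (log2 -0.16 ± 0.09, adjusted p = 0.323). Cubn, at 108, 132 and 130 CPM against 110, 131 and 93.5, and Amn, at 284, 252 and 253 against 239, 230 and 262, overlapped. Of the 4 members 1 was called, with 8.54% of all genes called. The call on Lrp2 rests on few libraries: leaving out warm replicate 1 or 3, or cold replicate 2 or 3, gave an adjusted p of up to 0.0903, with log2 values between -0.66 and -0.45 over the 6 fits. S3-like clusters held 1284 of 7470 cold and 2200 of 7954 warm PT-like cells, and within the S1-like, the S3-like and the other PT clusters the warm range of Lrp2 lay below the cold one, at 724 to 839 CPM against 922 to 1295, 747 to 799 against 943 to 1408 and 326 to 468 against 471 to 597. Genes spanning 100 kb or more had a median log2 of -0.25 here, and 23.6% of them were lower than Lrp2. Summed over whole libraries, 0 of 4 members were called (9.58% of genes), 1 having an unadjusted p under 0.05, Amn, and DESeq2 calling 0. There Lrp2 was 520, 613 and 660 CPM cold and 434, 538 and 453 warm, with PT markers 11 of 22 higher in warm libraries and 0 lower.

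Methanol fixation was followed by lower Lrp2 in PT-like cells. In cold-dissociated aliquots Lrp2 was 619, 653 and 685 CPM after methanol against 776, 1020 and 1045 fresh (log2 -0.48 ± 0.13, edgeR adjusted p = 0.012), and Dab2 was 392, 389 and 372 against 453, 509 and 502 (log2 -0.29 ± 0.09, adjusted p = 0.0364). Both were thus below every fresh library, and 2 of 4 members were called, with 19.3% of all genes called. Leaving out fresh replicate 2 ended both calls (adjusted p = 0.0516 for Lrp2 and up to 0.0983 for Dab2), and leaving out fresh replicate 3 or methanol replicate 2 or 3 ended that of Dab2. Long genes were lower as a group in this cold comparison. Genes with 8 kb or more of exon had a median log2 of -0.44, and 46.7% of them were lower than Lrp2. Genes spanning 100 kb or more had a median of -0.35, with 40.8% of them lower than Lrp2 and 54.2% lower than Dab2. In warm-dissociated aliquots Lrp2 was 409, 497 and 522 CPM against 562, 699 and 601 (log2 -0.39 ± 0.13, adjusted p = 0.0495), 1 of 4 members called with 15.8% of all genes. That call was lost without fresh replicate 2 or 3 or methanol replicate 1 or 3, with adjusted p up to 0.217. Cubn and Amn passed the test in neither set, with log2 values from -0.20 to -0.05. The mix of PT clusters moved with these values: PT clusters that were neither S1-like nor S3-like, which had the lowest Lrp2, were 3751 of 7470 fresh and 5451 of 8332 methanol-fixed cold cells, and 3799 of 7954 and 2614 of 4259 warm ones. Within S1-like clusters Lrp2 was 742 to 799 CPM after methanol against 922 to 1295 fresh in cold cells, and 387 to 721 against 724 to 839 in warm ones. In S3-like clusters it was 798 to 989 CPM against 943 to 1408 and 570 to 703 against 747 to 799, and in the others 430 to 504 against 471 to 597 and 339 to 445 against 326 to 468. The ranges were thus apart in S1-like clusters of both sets and S3-like clusters of the warm set and overlapped in the rest, and the part of the mix in the calls was not tested. Among the 4 fresh and methanol-fixed C57BL/6J groups, mean Lrp2 ran from 476 CPM in warm methanol-fixed to 947 in cold fresh PT-like cells. The effect of methanol did not differ detectably between the dissociations in PT-like sums (0 of 4 members called, 0% of all genes, 0 with an unadjusted p under 0.05 and 0 by DESeq2), with a log2 difference for Lrp2 of 0.10 ± 0.18. Over whole libraries 0 of 4 members were called after methanol in cold (23.8% of genes called) or warm aliquots (20.2%), 0 had an unadjusted p under 0.05 and DESeq2 called 0, and the same held for their difference (0.263% of genes called).

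Cryopreservation removed nearly all counts of the receptors from C57BL/6J libraries. Cubn and Amn were listed at 0 in all 6 cryopreserved libraries, where the study's filter on genes seen in few cells can have removed a few UMIs, and Lrp2 was 0, 0 and 9.44 CPM in cold and 9.76, 0 and 0 in warm aliquots. The lowest fresh libraries had 434 CPM of Lrp2, 70.6 of Cubn and 152 of Amn. Dab2 persisted at 122, 95.5 and 103 CPM cold and 105, 87.0 and 108 warm, against 333, 349 and 361 and 368, 310 and 337 fresh (log2 -1.93 ± 0.11 and -2.12 ± 0.11, adjusted p = 3.8e-11 and 1.2e-11). All 4 members were called lower in cold (47.3% of genes called) and warm aliquots (54.3%). PT-like barcodes were 0.184 to 0.806% of these libraries, and 22 of 22 PT markers were lower in both. Beside the lasting Dab2 counts, 11 of 11 endothelial and 7 of 8 macrophage markers were higher in cold and in warm aliquots, and of 9 intercalated markers 2 were higher and 1 lower in cold and 8 higher in warm ones. Their part in the Dab2 values was not tested. The change in the cryopreservation effect with dissociation was not called for any member (0 of 4, 6.8% of genes, 0 with an unadjusted p under 0.05 and 0 by DESeq2), and it cannot be estimated for genes at 0.

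Female cells stored frozen kept enough PT-like cells to compare them directly. Over whole libraries Lrp2 was 177, 245 and 122 CPM after storage against 833, 1035 and 899 fresh (log2 -2.75 ± 0.22), Cubn 25.7, 38.2 and 22.7 against 115, 139 and 125 (-2.53 ± 0.18) and Amn 44.8, 68.3 and 39.2 against 192, 248 and 186 (-2.44 ± 0.18). Dab2 fell less, at 178, 175 and 199 CPM against 307, 366 and 316 (-1.25 ± 0.16). All 4 were called, with edgeR adjusted p of 1.1e-05 or less, as were 62.8% of all genes, and the 21 PT markers tested were all lower with a median of -2.99. Markers of intercalated cells (8 of 9), macrophages (7 of 8) and endothelium (11 of 11) were higher after storage, with medians of 1.41, 1.39 and 1.66, and their part in the Dab2 value was not tested. Within the 258 PT-like cells left, no gene had a lower mean CPM than in fresh PT-like cells. Lrp2 was 2208, 1996 and 1580 CPM after storage against 1583, 1632 and 1588 fresh, and Dab2 was 585, 599 and 722 against 507, 524 and 500. Cubn was 344, 328 and 329 CPM against 222, 220 and 222, and Amn 516, 572 and 464 against 365, 396 and 326, with the stored values above the fresh ones. In the fit 0 of 4 members were called (10.1% of genes called), with log2 values of 0.06 to 0.38, 2 having an unadjusted p under 0.05, Cubn and Amn, and DESeq2 calling 0. With genes listed for only some libraries kept in the fit, the log2 values turned to -0.40 for Lrp2, -0.36 for Dab2, -0.14 for Amn and -0.08 for Cubn, so that no direction can be given.

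**Figure D3:**
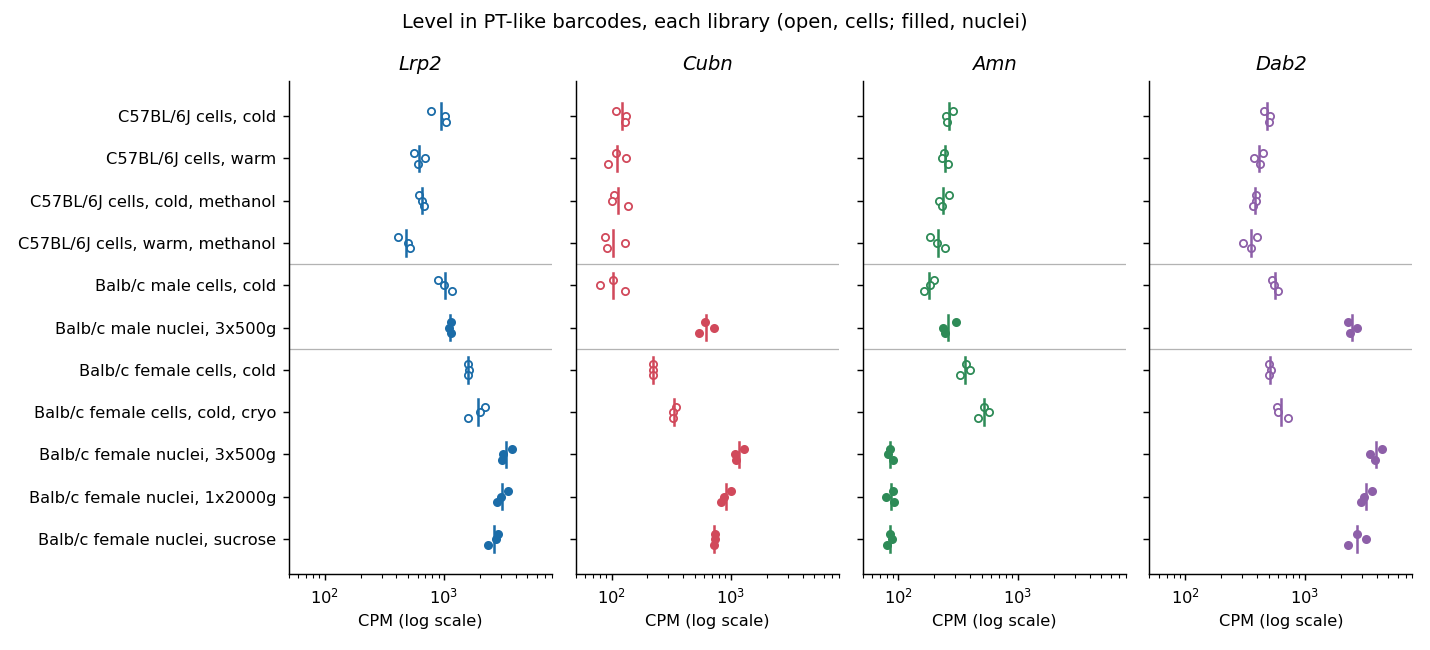
CPM on a log axis of each gene in PT-like barcodes of each library (points, open for cells and filled for nuclei) with the mean of 3 libraries (vertical lines), by group, for the groups with enough PT-like barcodes. Cubn and Dab2 are higher in nuclei than in cells of the same sex, while Amn is at 81.2 to 89.2 CPM in female 3x500g nuclei against 326 to 396 in female cells.

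Nuclei set against cells of the same mouse experiment ask what the choice of cells or nuclei does to each gene. Cubilin and Dab2 were several times higher in nuclei in both Balb/c experiments, megalin was higher in female nuclei and did not pass the test in male ones, and amnionless was lower in female nuclei and did not pass the test in male ones. These directions are those of PT-like barcodes. In whole male libraries amnionless was called higher in nuclei, at a log2 below the median of all genes. In PT-like female barcodes Cubn was 1291, 1093 and 1099 CPM in 3x500g nuclei and 222, 220 and 222 in cells, 4.30-fold higher by the fit (edgeR adjusted p = 9.7e-13). Dab2 was 4415, 3532 and 3912 CPM against 507, 524 and 500, the largest of the members' differences (log2 2.67 ± 0.15, adjusted p = 3.9e-12). Lrp2 was 3702, 3113 and 3037 CPM against 1583, 1632 and 1588 (log2 0.75 ± 0.14, adjusted p = 8.2e-05). The call on Lrp2 was lost with genes listed for any library and with only the groups compared (edgeR adjusted p up to 0.0898). Over the alternatives its log2 ran from 0.27 to 1.08. No nuclear value of these 3 genes overlapped a cell value. Amn, the short gene, was 85.7, 81.2 and 89.2 CPM in nuclei and 365, 396 and 326 in cells, and fell by 2.38 on the log2 scale (± 0.11, adjusted p = 7.7e-14). All 4 members were called, with 87.8% of all genes called, and the median log2 of all genes was 0.46.

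The male PT-like barcodes gave the same for Cubn and Dab2 and not for the other 2 genes. Cubn was 611, 722 and 538 CPM in nuclei against 102, 79.9 and 129 in cells (log2 2.12 ± 0.18, edgeR adjusted p = 2.0e-07), and Dab2 was 2322, 2750 and 2411 against 532, 554 and 598 (log2 1.66 ± 0.16, adjusted p = 6.5e-07). Lrp2 was 1148, 1093 and 1141 CPM in nuclei and 890, 1005 and 1157 in cells, and the ranges overlapped. Its fitted log2 was -0.34 ± 0.15 (adjusted p = 0.0535) with normalization factors and 0.16 without them, and leaving out replicate 1 of either group brought a call (adjusted p down to 0.0337), as did DESeq2 (log2 -0.40, adjusted p = 0.002). Amn, at 304, 238 and 246 CPM in nuclei, lay above the cells at 197, 184 and 164, and its fitted log2 was 0.03 ± 0.16. So 2 of 4 members were called, with 79.7% of genes called and a median log2 of 0.65 over all genes. With the PT-marked clusters left unnamed added to the sums, a choice made after seeing the data, Lrp2 was called too (log2 -0.38, adjusted p = 0.0484), beside Cubn and Dab2. Whole-library sums gave 3 of 4 members called in male (Cubn, Amn and Dab2, all higher in nuclei, with 81.3% of genes called) and 4 of 4 in female libraries (90.1%), with Cubn at 2.66 and 2.17, Amn at 0.71 and -2.20 and Lrp2 at 0.38 and 0.81 on the log2 scale, and Dab2 3.94-fold and 6.08-fold higher. Amn was thus called in opposite directions in male (edgeR adjusted p = 0.00076) and female libraries, and its male call held in 6 of 6 fits that left out 1 library. The male value lay below the median of 0.84 over all genes, with 52.3% of genes higher, and 53.6% of all genes were called higher there. Of 22 PT markers 10 were higher and 10 lower in male nuclei, and of 21 tested 5 were higher and 12 lower in female ones. Of 8 macrophage markers 5 were lower and 1 higher in males, and 7 lower and 0 higher in females. Their part in the calls was not tested. Endothelial-like male nuclei, a class not known for this uptake system, held 719 CPM of Lrp2 and 1665 of Dab2, against 73.3 and 152 in endothelial-like male cells, and the part of free RNA in the male nuclear values was not tested. In endothelial-like male nuclei Dab2 was 69.2% of the summed Dab2 and Lrp2 UMIs, against 68.8% in PT-like male nuclei. In endothelial-like male cells it was 68.1% (32 of 47), against 35.6% in PT-like male cells.

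Ratios within a library need no scaling between libraries, but those of cells and nuclei are unlike measures. Intronic reads were counted in nuclei and not in cells, and the introns of Amn are much shorter than those of the other 3 genes. The part of this counting in the ratios was not tested. There were 4.44 UMIs of Lrp2 to 1 of Amn in female PT-like cells (4.12 to 4.87 over 3 libraries) and 38.5 to 1 in 3x500g nuclei (34.1 to 43.2), whereas male cells and nuclei had 5.67 (4.51 to 7.04) and 4.34 (3.78 to 4.64). The male ranges overlapped and the female ones did not. The ratio of Dab2 to Lrp2 was 0.319 in female cells and 1.21 in female nuclei, and 0.555 and 2.22 in the male ones. That of Cubn to Lrp2 was 0.138 and 0.354 in females and 0.102 and 0.555 in males, and neither ratio overlapped between cells and nuclei.

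The female minus male difference of the nuclear effect was tested in 1 fit. In PT-like sums Amn differed by -2.95 ± 0.22 on the log2 scale (edgeR adjusted p = 4.9e-08) and Cubn by -0.58 ± 0.22 (adjusted p = 0.0378), 2 of 4 members called with 47.6% of all genes called. The median difference over all genes was -0.79, so Cubn lay close to the middle of the genes and Amn below 85.2% of them. DESeq2 called Amn but not Cubn (log2 -0.084, adjusted p = 0.796), and called Lrp2 (1.03, adjusted p = 1.9e-10) and Dab2 (0.95, adjusted p = 1.8e-07) as well. By edgeR, Lrp2 differed by 0.54 ± 0.22 (adjusted p = 0.0501) and Dab2 by 0.46 ± 0.22 (adjusted p = 0.0956). The call on Amn held in all 12 fits that left out a library, while that on Cubn was lost in 11 of them, with values from -0.67 to 0.12, and held only without replicate 3 of the male cells. Leaving out any 1 of the 6 nuclear libraries brought calls on Lrp2 and Dab2, as did replicate 1 of the male cells for Lrp2, with differences of up to 1.17 and 1.13. Whole-library sums gave -3.21 for Amn and -0.79 for Cubn, again 2 of 4 members, with 54.6% of genes called and a median of -0.75. DESeq2 there called Lrp2, Amn and Dab2 and not Cubn (adjusted p = 0.234). The edgeR call on Cubn held in 3 of the 12 fits and that on Amn in 12, while Dab2 was called without any 1 of the 6 nuclear libraries and Lrp2 without 3 of them.

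Gene span went with the nuclear difference across all genes, and the members can be placed within it. Of genes under 10 kb the median log2 of nuclei over cells was -0.94 in male and -1.65 in female PT-like barcodes, rising through 0.03 and -0.13 at 10 to 30 kb and 1.11 and 1.28 at 30 to 100 kb to 3.03 and 2.76 at 100 kb and over. Nuclear counts include intronic reads and those of cells only exonic ones. Male cell libraries listed 5409 to 6658 of 16524 genes at 0, and male nuclear libraries 781 to 1121. The upper quartile at 100 kb and over was 6.86 in males and 3.74 in females, and the part of genes at 0 in the male values was not tested. Lrp2 was low for its span: 3.1% of the 1791 genes of its bin were lower in males, and 6.7% of 1533 in females. Cubn stood above 33.1% and 31.0% of that bin, and Dab2 above 24.3% and 47.5%. Amn stood above 68.1% of genes under 10 kb in males and 36.6% in females. Set against genes of like exon length, Lrp2 was above 10.0% and 20.5%, and Dab2 above 68.0% and 87.4%. So of the 3 long genes, Lrp2 had the lowest log2 value of nuclei over cells in both experiments.

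**Figure D4:**
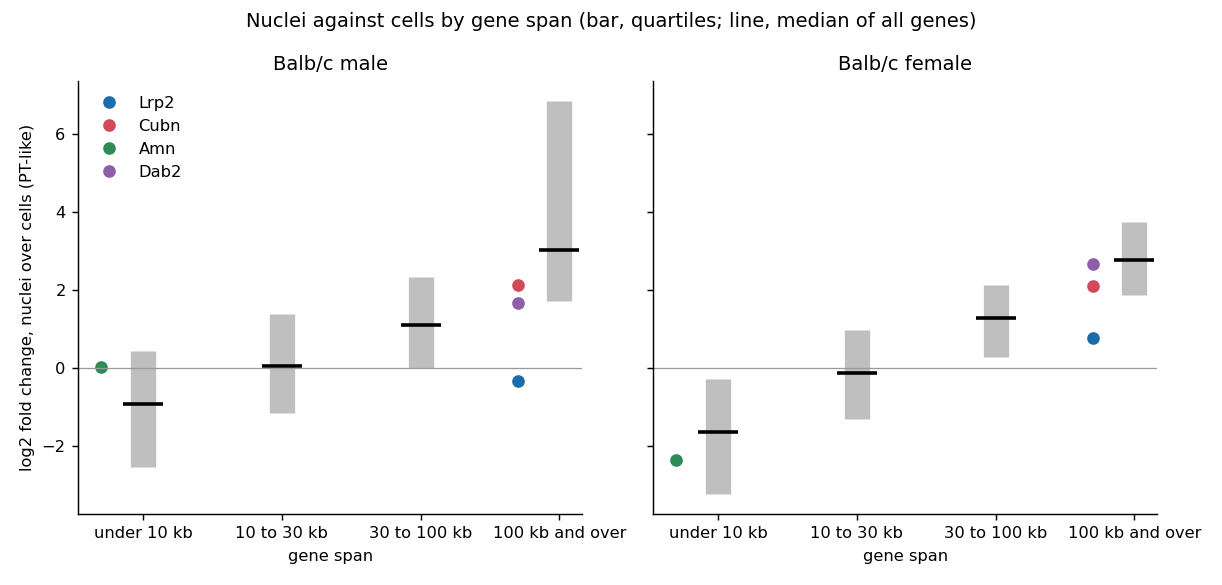
Log2 fold change of 3x500g nuclei over cells in PT-like sums by gene span, for male and female Balb/c mice, with grey bars from the lower to the upper quartile and a black line at the median of all genes of a bin, and points for the 4 members. Lrp2 lies below the bar of its bin in both panels, at -0.34 and 0.75 against bin medians of 3.03 and 2.76.

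The protocols of nuclear isolation differed in Cubn and Dab2 and not detectably in Amn. PT-like nuclei from the sucrose cushion had 729, 729 and 717 CPM of Cubn against 1291, 1093 and 1099 in 3x500g nuclei (log2 -0.71 ± 0.11, edgeR adjusted p = 6.2e-05), and 2729, 3233 and 2302 of Dab2 against 4415, 3532 and 3912 (log2 -0.56 ± 0.14, adjusted p = 0.005). Lrp2 was 2815, 2708 and 2355 CPM, below the 3x500g values of 3702, 3113 and 3037 (log2 -0.36 ± 0.14, adjusted p = 0.0516), and was called without 3x500g replicate 2 (adjusted p = 0.0359) and by DESeq2 (log2 -0.33, adjusted p = 0.0326). Amn was 84.8, 88.3 and 79.7 CPM and overlapped the 3x500g range of 81.2 to 89.2. Thus 2 of 4 members were called, with 43.4% of all genes called, and whole-library sums called the same 2 genes (55.4% of genes called). In those sums 9 of 11 endothelial, 6 of 8 macrophage and 3 of 3 fibroblast markers were higher in sucrose nuclei, 5 of 6 distal convoluted tubule markers were lower, and 1 of 21 PT markers was higher and 4 lower, and their part in the calls was not tested. Within the S1-like, the S3-like and the other PT clusters, the sucrose range lay below the 3x500g range for both genes, with Cubn at 686 to 703 CPM against 974 to 1164, 819 to 933 against 1305 to 1549 and 611 to 685 against 1034 to 1214. The 1x2000g nuclei lay between, with Cubn at 997, 880 and 828 CPM (log2 -0.36 ± 0.10, adjusted p = 0.0164) and Dab2 at 3654, 3111 and 2938 (log2 -0.28 ± 0.14, adjusted p = 0.143), so that 1 of 4 members was called, with 28.5% of genes called. That call was lost without 3x500g replicate 1 or 1x2000g replicate 2 or 3 (adjusted p up to 0.098). In whole-library sums 0 of 4 were called (40.6% of genes called), 1 had an unadjusted p under 0.05, Cubn, and DESeq2 called that 1. Cubn was called there by edgeR without 3x500g replicate 2 or 1x2000g replicate 1 (adjusted p down to 0.0334). In the same sums 9 of 11 endothelial and 6 of 8 macrophage markers were higher in 1x2000g nuclei. Of 6 distal convoluted tubule markers 4 were lower, and of 21 PT markers 1 was higher and 0 lower. Their part was not tested. Both comparisons share the 3x500g libraries. In each, genes of 100 kb and over were lower as a group, with medians of -0.29 and -0.21, and only 3.7% of them were lower than Cubn in the sucrose comparison, and 9.4% lower than Dab2.

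**Figure D5:**
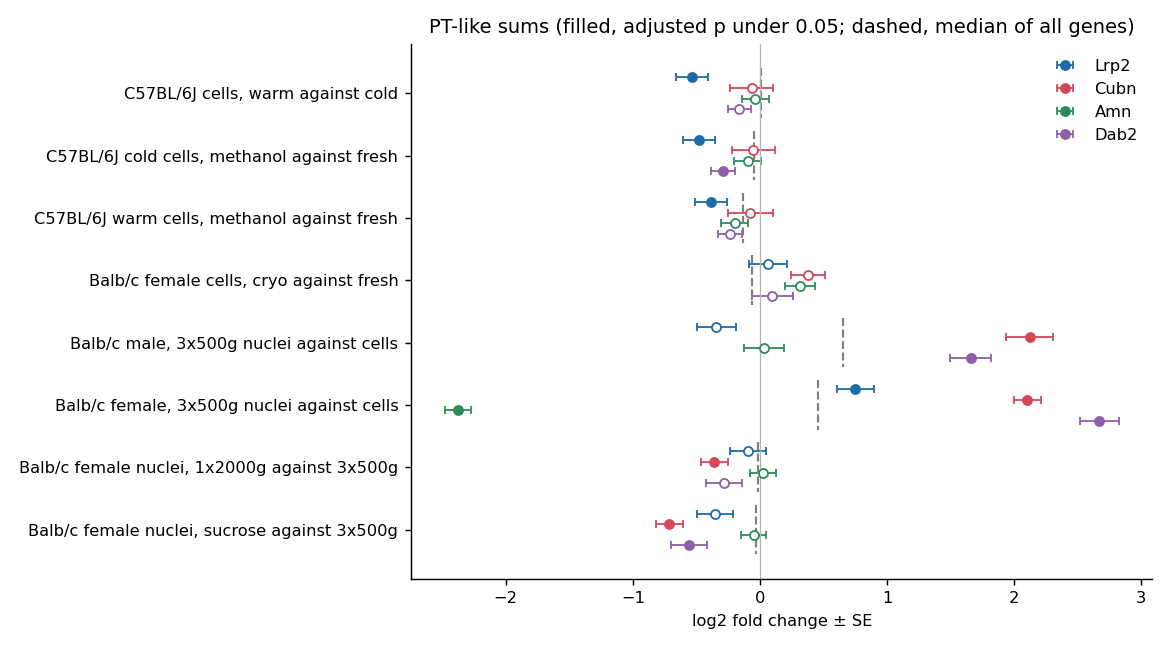
Log2 fold change with its SE for the 4 genes in PT-like sums, 1 row for each comparison, with filled points for an adjusted p under 0.05 and a dashed line at the median of all genes. Values run from -2.38 (Amn, female nuclei against cells) to 2.67 (Dab2, same comparison), and the comparisons among cells stay between -0.53 and 0.38.

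In the C57BL/6J and male Balb/c experiments, single-cell libraries held fewer counts of Lrp2 and Cubn than bulk RNA would give for most genes. The log2 ratio of 10x CPM to bulk TPM was -2.25 for Lrp2 and -3.21 for Cubn in C57BL/6J cold cells, against a median of -0.80 over 9391 genes, so that only 6.6% and 1.3% of genes were lower. Bulk TPM was rescaled for these ratios, with Lrp2 at 2851 in C57BL/6J cold suspensions. Dab2 at -0.27 and Amn at -0.45 were close to the rest. Male cells over intact kidney gave -1.93 for Lrp2 and -2.63 for Cubn. Female cells (v3, poly(A) bulk) did not show it, with 0.53 for Lrp2 and -0.45 for Cubn against a median of -0.63. Nuclear counts include intronic reads while bulk TPM is per exon base, so their ratios set unlike measures together. For Lrp2 the nuclear ratio was 0.63 in females and -1.385 in males. Of genes with 8 kb or more of exon, 23.2% and 3.6% were lower than Lrp2. In nuclei Dab2 exceeded bulk most, with ratios of 3.01 in females and 2.48 in males, above 95.3% and 95.6% of genes, while Amn was -2.82 in females and -0.35 in males. Genes with under 2 kb of exon, as Amn has, had medians of -2.65 and -1.35 there, and 45.1% and 76.0% of them were lower than Amn.

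Detection per barcode was compared after thinning every barcode to 500 UMIs. Among PT-like female barcodes a UMI of Lrp2 was found in 77.1% of nuclei and 43.0% of cells, of Dab2 in 78.0% and 21.4%, of Cubn in 42.3% and 8.69%, and of Amn in 4.60% and 13.7% (means of 3 libraries). Before thinning the shares were 99.7% and 65.4%, 99.0% and 52.4%, 97.0% and 31.1%, and 33.0% and 40.6%, at median depths of 5039 and 1458 UMIs per PT-like barcode. Thinning kept 9763 of 9763 nuclei and 7751 of 9325 cells. Male nuclei and cells had 42.7% and 36.0% for Lrp2, 61.8% and 23.4% for Dab2, 26.8% and 4.46% for Cubn, and 12.6% and 8.55% for Amn, from 7182 of 7227 nuclei and 2194 of 4878 cells. As a measure of background for Lrp2, Cubn and Amn, endothelial-like barcodes had a UMI of Lrp2 in 11.8% of female nuclei and 3.24% of female cells. In male nuclei of that class Lrp2 reached 26.2%, Cubn 14.5% and Amn 7.23%. Dab2 reached 44.5% there. In endothelial-like male nuclei Dab2 was 69.2% of the summed Dab2 and Lrp2 UMIs, against 68.8% in PT-like male nuclei. In endothelial-like male cells it was 68.1% (32 of 47 UMIs), against 35.6% in PT-like male cells. The part of free RNA in these values was not tested. Cryopreserved cold endothelial-like C57BL/6J cells had 95 UMIs of Dab2 and 0 of Lrp2. However, Lrp2 was listed at 0 over the whole library in replicates 1 and 2 of that group. There the filter on genes seen in few cells can have removed a few UMIs, so this 0 cannot show that Lrp2 was absent. Thinned C57BL/6J PT-like cells with Lrp2 were 34.2% cold and 23.4% warm when fresh, and 26.9% and 18.8% after methanol, against 3.29 to 6.19% in endothelial-like cells.

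The wider machinery of uptake was read from a list of 41 genes of receptor chaperones, adaptors, the clathrin coat, endosomes, recycling, acidification and lysosomes. In bulk, 3 rose and 5 fell in intact female kidneys of 41 tested, a share near the 20% of all genes called. Among them was Rab38, a Rab protein of lysosome-related organelles, which was higher by log2 1.07 ± 0.11 (edgeR adjusted p = 0.00016), and the megalin chaperone Lrpap1, higher by 0.25 ± 0.06 (adjusted p = 0.021). Of the genes that fell, Appl2 was at -0.33 ± 0.08, Atp6v1b2 at -0.29 ± 0.06 and Ctns at -0.23 ± 0.06 (edgeR adjusted p = 0.0167, 0.0125 and 0.0202). Between warm and cold suspensions 1 of 41 was called, against 8.68% of all genes, the AP-2 subunit Ap2a2 at -0.29 ± 0.07. In PT-like nuclei against cells most of the list was lower. In females 13 of 39 tested rose and 23 fell, where 51.4% of all genes rose and 36.4% fell, with a median of -0.58 against 0.46 over all genes. In males 10 of 40 rose and 25 fell, where 50% of all genes rose and 29.7% fell, with a median of -1.06 against 0.65. The AP-2 subunits Ap2s1 and Ap2m1, which span 10.9 and 9.4 kb, had log2 values of -3.96 ± 0.09 and -3.85 ± 0.10 in female nuclei, and of the 4 genes of the clathrin coat, 4 were lower in male nuclei, and 3 lower and 1 higher in female nuclei. The phosphatase Ocrl, mutated in Lowe syndrome, was higher in nuclei of both, by 2.28 ± 0.11 in females and 1.70 ± 0.19 in males. Rab4a, a Rab protein of fast recycling, was at 32, 51 and 18 UMIs in male PT-like cells and listed at 0 in the 3 male nuclear libraries.

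Across 62 sums of a cell class in a group of the female Balb/c 10x experiment (15 classes, 5 groups, 11689 genes), the genes with levels most like those of Lrp2 were Kcnj15, Gas2 and Slc6a19 (Pearson r = 0.97 each). Cubn was most like Slc13a1, a sulfate transporter (r = 0.97), Abcc2 and Aspa. The nearest to Amn were Slc26a1 (r = 0.93), Slc51a and Cyp2d26, and Dab2 had the loosest neighbors, with A1cf at r = 0.86. Among the members r ran from 0.66 for Amn with Dab2 to 0.93 for Cubn with Lrp2. Sums of a group share libraries and depth, and these correlations are descriptions only.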

How the data were processed

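The authors counted single-cell and single-nucleus reads with Cell Ranger 2.1.1 on mm10, exonic reads in cells and intronic with exonic reads in nuclei, called cells with EmptyDrops and deposited UMI counts after a filter, per their methods, on genes seen in at least 10 cells. The tables still hold up to 852 genes seen in 1 to 9 barcodes of a library. Bulk reads were trimmed with Trim Galore, aligned with STAR 2.6.1a to GRCm38 and counted with featureCounts, and the authors deposited raw read counts. Whether that counting used strand is not given in the sources used here. Mitochondrial genes were left out of 10x sums, because they are missing from the tables of the nuclei and of the male Balb/c cells.

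Barcodes were clustered with leidenalg 0.10.2 (resolution 2, 2000 variable genes, 30 principal components, 20 neighbors) within sets of libraries, and a cluster was named from at least 3 markers. Doublets were marked (0.8% per 1000 barcodes) and kept. Counts were summed per library and per PT-like barcodes of a library and tested by quasi-likelihood in edgeR 4.0.16 under R 4.3.3 (TMM, filterByExpr with a minimum count of 10, Benjamini-Hochberg adjustment, threshold 0.05). All 10x groups of an experiment shared a fit. TPM used GENCODE M21 exon lengths. PT-like sums of cryopreserved C57BL/6J cells were not tested, because these libraries held fewer than 10 PT-like barcodes. The tests were checked on simulated counts.

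Alternatives were DESeq2 1.42.0, other normalizations and filters, other fits, clusters and doublet handling, a replicate block, and leaving out each library. The members and lists were chosen with earlier results of these data known. Named genes were the 4 members, up to 3 called genes of the uptake list in each direction in the bulk and nuclear comparisons, and for each member the 5 genes most like it, of which those leading are printed. The 3 samples of a group came from 3 mice, and p-values measure the spread between libraries within groups, pooled over the groups of a fit. Stored cells were aliquots of the fresh suspensions, and the reported tests did not pair them.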

Additional observations from a re-analysis of the deposited data

Results flagged for a closer look

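The effect of nuclei against cells differed between the female and the male Balb/c experiments for Cubn and Amn by the edgeR test of the difference. For Amn the difference of log2 effects, female minus male, was -3.21 in library sums (adjusted p = 1.2e-06) and -2.95 in PT-like sums (adjusted p = 4.9e-08). For Cubn it was -0.79 in library sums (adjusted p = 0.0203) and -0.58 in PT-like sums (adjusted p = 0.0378), against medians over all genes of -0.75 and -0.79. DESeq2 called Amn in both sums and Cubn in neither (adjusted p = 0.234 and 0.796), and it called Lrp2 and Dab2 in both. Sex, age and 10x chemistry differ together between the experiments and cannot be told apart.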

How the results depend on the processing

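Requiring a log2 fold change of at least 1 as well left 0 of 4 members called for intact kidney against suspension, for sucrose nuclei in both sums, for 1x2000g nuclei in PT-like sums and for warm dissociation and both methanol sets in PT-like sums, and 1 for the female minus male difference in both sums. Between bulk warm and cold suspensions, 2 were called with no filter on low counts and by DESeq2, and 1 by the exact test of edgeR. For 1x2000g nuclei, 1 was called in library sums without normalization factors, by DESeq2 and with only the groups compared, and 0 in PT-like sums with only the groups compared. After warm methanol, 0 were called in PT-like sums with RLE size factors, only the groups compared, mitochondrial genes kept or doublets left out. In cryopreserved female PT-like cells, 2 were called without normalization factors and 1 with only the groups compared, and the female minus male difference had 1 with clusters named by PT markers alone added. The cause of these shifts was not tested.

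Log2 values turned sign as follows. Without normalization factors Dab2 was -0.042 for warm dissociation in library sums, Cubn was -0.0042 after warm methanol (-0.067 with no filter) and Lrp2 was 0.16 in male PT-like nuclei. Amn there was -0.032 with RLE factors, -0.031 by DESeq2 and -0.086 with PT-marker clusters added. In cryopreserved female PT-like cells, genes listed for any library gave -0.40 for Lrp2, -0.081 for Cubn, -0.14 for Amn and -0.36 for Dab2, and no filter gave -0.24 for Lrp2 and -0.20 for Dab2. Amn in sucrose PT-like nuclei was 0.0038 with no filter. For the methanol difference between dissociations, Dab2 in library sums was 0.026 with RLE, 0.0145 without factors and 0.024 by DESeq2, Lrp2 was 0.0018 with RLE and 0.0062 by DESeq2, and Cubn in PT-like sums was 0.024 with RLE, 0.024 without factors and 0.0175 by DESeq2. For the cryopreservation difference, DESeq2 gave 0.0598 for Cubn and 0.031 for Amn, both listed at 0 in stored libraries.

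Leaving out 1 library moved the number of members called between 0 and 1 for bulk warm dissociation, 1x2000g nuclei in both sums, warm dissociation and warm methanol in PT-like sums, between 0 and 2 for cold methanol, between 2 and 3 for male and for sucrose nuclei in PT-like sums (Lrp2 called without replicate 1 of either male group, and without 3x500g replicate 2), and between 1 and 3 for the female minus male difference in both sums. Values that crossed 0 were, in library sums, Amn (-0.12 to 0.023) in sucrose nuclei, Dab2 (-0.055 to 0.019) after cold methanol, Cubn (-0.18 to 0.24) after warm methanol, Lrp2 (-0.20 to 0.046) in 1x2000g nuclei, Cubn (-0.50 to 0.0019) and Lrp2 (-0.35 to 0.015) for the methanol difference and Lrp2 (-5.88 to 6.21) for the cryopreservation difference. In PT-like sums they were Amn (-0.10 to 0.016) and Cubn (-0.23 to 0.048) for warm dissociation, Cubn (-0.23 to 0.0355) after cold and (-0.34 to 0.089) after warm methanol, Lrp2 (-0.36 to 0.034), Amn (-0.10 to 0.22) and Dab2 (-0.30 to 0.14) after cryopreservation, Amn (-0.17 to 0.10) in male nuclei, Amn (-0.039 to 0.10) and Lrp2 (-0.20 to 0.032) in 1x2000g nuclei, Cubn (-0.67 to 0.12) for the female minus male difference, and Amn (-0.18 to 0.019), Cubn (-0.29 to 0.16) and Dab2 (-0.033 to 0.14) for the methanol difference.

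A replicate block by the number in the barcode prefixes, chosen after seeing the data, changed no member's call, with 4 called after cryopreservation in cold and in warm library sums, and 1 for warm dissociation, 2 for cold methanol and 1 for warm methanol in PT-like sums. Deviations of same-numbered C57BL/6J libraries correlated at -0.124 to 0.242 over 45 pairs (median 0.044), with 14 over 0.1, and those of different-numbered libraries at -0.263 to 0.144 over 90 pairs (median -0.036), with 3 over 0.1. Same-numbered libraries thus deviated together somewhat more often, but not in every pair, and the numbers were not used to pair samples in the reported values.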
